A study of Mus musculus with 23 samples.

Results

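Rod and cone photoreceptor transcripts were examined in RNA-seq of GFP+ microglia that had been sorted from mouse retinas. The members were 37 genes, 28 of rods and 9 of cones, out of 35825 genes measured. They were chosen by name for their known use in photoreceptors, though with earlier results of these data known. All 37 passed the filter on low values (3 or more libraries with a normalized count of 10 or higher), as did 17102 genes in all. The 23 libraries fell into 6 groups. WT libraries came from CX3CR1-GFP mice, in which green fluorescent protein stands in 1 copy of the fractalkine receptor gene Cx3cr1, and KO libraries came from Spp1 KO; CX3CR1-GFP mice, which carry the same reporter and lack functional Spp1 (osteopontin) in the whole body. Each genotype was sampled as a control, called naive here (4 WT and 4 KO libraries). The labels do not say whether control mice were untreated or had saline injected, as the methods state for microbead controls. Further libraries were taken at 4 weeks after elevation of intraocular pressure with microbeads (IOP, 4 and 4). The last were taken at day 7 after optic nerve crush (ONC, 3 and 4). By this description all groups shared the reporter allele, and the number of reporter copies in each library was not tested. The animals were age-matched mice of both sexes whose age was not given in the sources used here. The methods of the study state that retinas of several mice were pooled for a sort. A figure legend on gene expression in these microglia gives n = 4 mice, so how many mice a library held is not clear.

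Rods and cones are the light-sensing neurons of the outer retina. An activated visual pigment switches on transducin (Gnat1 with Gnb1 and Gngt1 in rods, Gnat2 with Gngt2 in cones), transducin releases the catalytic subunits of the phosphodiesterase PDE6 from their inhibitory subunits, and the fall of cyclic GMP closes the cyclic nucleotide-gated channels. Arrestins (Sag in rods, Arr3 in cones) end the response, and calcium sensors with guanylate cyclases restore it. These genes are transcribed in photoreceptors under the transcription factors CRX, NRL and NR2E3, and microglia are not known to transcribe most of them. Gngt2 is an exception, since myeloid cells are known to express it, and Gnb1 and Unc119 are used in many tissues. How far genes of the rod list are also used in cones was not tested.

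Upstream sequences of members are shown because the 3 transcription factors are members themselves. Windows of 250 bases before an annotated start were available for 27 of the 37 members (RefSeq, GRCm38.p6). The core of the CRX site, TAATCC on either strand, stood in 12 of the 30 windows of these 27 genes, against 6.25% of the 32851 windows of all genes. A short site for Maf-type factors such as NRL, TGCTGA on either strand, stood in 6 of the 30, against 16.1% of all windows. The windows of Sag and Aipl1 held both. The following 4 windows belong to the arrestin, a channel subunit, a chaperone of PDE6 and a calcium sensor. They are read 5′ to 3′ on the strand of the gene, with every match of either motif in capitals. Values of Sag, Cngb1 and Guca1a are given further on. The motifs do not overlap each other in these windows, and a match is a match of letters only.
Sag (chr1:87803430-87803679, + strand, GRCm38): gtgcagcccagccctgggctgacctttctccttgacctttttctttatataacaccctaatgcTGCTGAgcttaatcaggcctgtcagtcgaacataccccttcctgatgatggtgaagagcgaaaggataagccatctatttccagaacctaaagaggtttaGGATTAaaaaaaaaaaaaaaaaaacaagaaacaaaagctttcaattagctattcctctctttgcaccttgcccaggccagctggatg
Cngb1 (chr8:95306586-95306835, - strand, GRCm38): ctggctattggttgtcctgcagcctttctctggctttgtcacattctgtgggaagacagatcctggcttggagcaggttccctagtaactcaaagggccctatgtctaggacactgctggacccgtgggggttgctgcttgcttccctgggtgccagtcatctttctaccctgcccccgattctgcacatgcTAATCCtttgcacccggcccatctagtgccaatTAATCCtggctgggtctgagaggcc
Aipl1 (chr11:72037510-72037759, - strand, GRCm38): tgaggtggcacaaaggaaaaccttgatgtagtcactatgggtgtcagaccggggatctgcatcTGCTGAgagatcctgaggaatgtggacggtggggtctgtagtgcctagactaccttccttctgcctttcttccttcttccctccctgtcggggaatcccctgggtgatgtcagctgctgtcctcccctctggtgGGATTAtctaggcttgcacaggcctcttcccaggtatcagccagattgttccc
Guca1a (chr17:47400607-47400856, - strand, GRCm38): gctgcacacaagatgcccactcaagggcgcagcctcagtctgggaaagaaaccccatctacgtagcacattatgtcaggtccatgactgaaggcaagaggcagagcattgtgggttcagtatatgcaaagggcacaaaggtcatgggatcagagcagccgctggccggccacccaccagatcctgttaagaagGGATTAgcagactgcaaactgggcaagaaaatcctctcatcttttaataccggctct

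Before the results, some facts of the libraries bear on them. Reads on genes ranged from 22180480 to 30296094 per library, so that 3 reads corresponded to between 2.41 and 4.03 normalized counts, far below nearly all values given here. Spp1 stood at 334 to 1518 in WT and 6.78 to 350.2 in KO naive libraries, at 1343 to 2772 and 9.28 to 811 after IOP elevation and at 14556 to 22906 and 15.0 to 6811 after ONC. One library labelled KO (naive replicate 1) thus held more Spp1 than 1 library labelled WT (naive replicate 3), and 3 KO ONC libraries held more than any naive or IOP library, so WT and KO below name the labels, and each direction between genotypes rests on them. The sources used here do not say whether the altered allele still gives these reads. Cx3cr1, whose promoter drives the reporter, was at 952 to 1233 in KO IOP libraries against 9417 to 26283 in KO naive ones, while P2ry12, another microglial gene, was at 40150.3 to 59142 in the same KO IOP libraries. Every library of the other groups held more Cx3cr1 than the KO IOP libraries. The cause was not tested, and each comparison that uses the KO IOP group includes this difference. The labels do not say that the libraries came from separate mice, so p-values measure the spread between libraries.

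Transcripts of rods were abundant in every library. The 28 rod genes together held 1.53, 1.81, 1.82 and 1.51% of the normalized counts of the 4 WT naive libraries and 3.26, 3.66, 1.14 and 3.83% of the 4 KO naive ones. After IOP elevation they held 2.64, 1.59, 1.87 and 2.76% in WT and 1.47, 1.26, 0.8497 and 1.22% in KO. After ONC they held 0.479, 1.98 and 0.608% in the 3 WT and 1.03, 0.756, 0.749 and 0.944% in the 4 KO libraries. KO naive replicates 1, 2 and 4 stood above all other libraries, and KO naive replicate 3 stood below every WT naive and WT IOP library. WT ONC replicate 2 was likewise far above the other 2 libraries of its group, and WT IOP replicates 1 and 4 above the other 2 of theirs. The groups averaged 1.67 ± 0.17% (SD, n = 4) in WT naive, 2.21 ± 0.57% (n = 4) in WT IOP, 1.02 ± 0.83% (n = 3) in WT ONC, 2.97 ± 1.24% (n = 4) in KO naive, 1.20 ± 0.26% (n = 4) in KO IOP and 0.87 ± 0.14% (n = 4) in KO ONC.

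The 8 cone genes without Gngt2 held much less. Their shares were 0.0404, 0.0396, 0.0436 and 0.0404% in WT naive and 0.128, 0.165, 0.0745 and 0.182% in KO naive libraries. They were 0.0588, 0.0373, 0.0536 and 0.0685% in WT IOP and 0.103, 0.05505, 0.0674 and 0.0587% in KO IOP libraries, and 0.0297, 0.0676 and 0.0116% in WT ONC and 0.0272, 0.0225, 0.0167 and 0.0428% in KO ONC libraries. All 4 KO naive libraries, replicate 3 included, stood above every WT library, of any treatment. Fewer photoreceptor cells or fragments in a sort and less RNA in each of them cannot be told apart in bulk libraries.

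**Figure D1:**
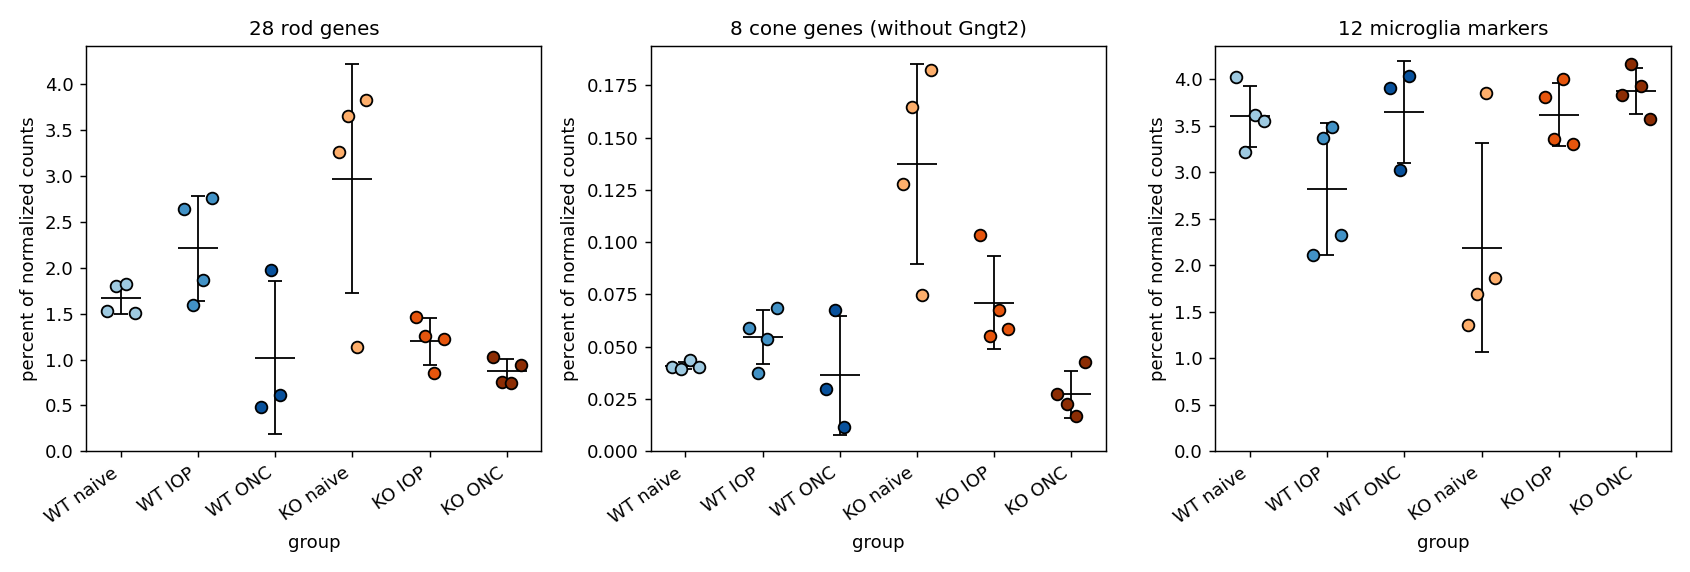
Percent of the normalized counts of each library (y axis) held by the 28 rod genes, the 8 cone genes without Gngt2 and 12 microglia markers, by group (x axis). Points are libraries in replicate order, the horizontal bar is the mean and the error bar 1 SD. Rod shares of KO naive replicates 1, 2 and 4 lie between 3.26 and 3.83%, above all other libraries, and the same 3 libraries have the lowest microglia shares, between 1.36 and 1.86%.

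Markers of other cells differed between the same libraries, and their part in the results below was not tested. The 12 microglia markers held 3.21 to 4.02% in WT naive, 1.36, 1.69, 3.85 and 1.86% in KO naive and 2.104, 3.37, 3.49 and 2.33% in WT IOP libraries, so that the libraries with the highest rod shares had the lowest microglia shares. They held 3.304 to 4.003% in KO IOP, 3.57 to 4.16% in KO ONC and 3.02 to 4.03% in WT ONC libraries. The 7 markers of the pigment epithelium, the layer that wraps rod outer segments, held 0.215, 0.0752, 0.00436 and 0.0763% in KO naive libraries against at most 0.00441% in any WT library. They also held more than any WT library in KO IOP replicates 2 and 4, at 0.0179 and 0.01704%, and in KO ONC replicate 4, at 0.0505%. Their defining marker Rpe65 was at 138, 47.5 and 853 normalized counts in these 3 libraries and at 1034 to 3128 in KO naive replicates 1, 2 and 4. In WT libraries it reached 71.7, in IOP replicate 3, which is above KO IOP replicate 4. It was at 112 in KO naive replicate 3. It was at 0 in KO IOP replicate 3 and KO ONC replicates 1 and 3. The 8 lens markers held 0.815, 0.1701, 0.115 and 0.883% in WT IOP libraries and at most 0.0109% in every other library. Bipolar cell markers (10 genes) held 0.0421 to 0.0491% in WT naive, 0.0583 to 0.179% in KO naive, 0.05003 to 0.0951% in WT IOP, 0.0530 to 0.0655% in KO IOP, 0.0191 to 0.09903% in WT ONC and 0.0188 to 0.0591% in KO ONC libraries. Müller glia markers (7 genes) held 0.142 to 0.186, 0.189 to 0.4101, 0.128 to 0.197, 0.128 to 0.153, 0.0794 to 0.131 and 0.0756 to 0.137% in the same order of groups. Amacrine cell markers (7 genes) held 0.106 to 0.114, 0.0679 to 0.117, 0.0385 to 0.0634, 0.0523 to 0.08804, 0.00715 to 0.0278 and 0.02198 to 0.0492% in that order, so that they were lower in all WT IOP than in all WT naive libraries, while rod shares averaged higher. Ganglion cell markers (8 genes) held 0.0355 to 0.0507, 0.0532 to 0.0596, 0.0336 to 0.0593, 0.0226 to 0.0355, 0.00136 to 0.00936 and 0.00505 to 0.0106%. After ONC 6 of the 7 amacrine and 5 of the 8 ganglion markers were called lower in WT, and 5 and 5 in KO, against 10.5% and 11% of all genes. Of the 10 bipolar and 7 Müller markers, 0 and 1 were called lower in WT, and 7 and 4 in KO.

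Levels of different genes were compared per kilobase of the median coding transcript, averaged over the 23 libraries. Gnat1, the alpha subunit of rod transducin (chr9:107674474-107679712, - strand, GRCm38), was highest with 46096 ± 20387 normalized counts per kb (SD, n = 23). Sag, the rod arrestin, followed with 28843 ± 12497, Pde6g, the inhibitory PDE6 subunit, with 26589 ± 14655, and the disc rim proteins Prph2 and Rom1 with 15548 ± 6894 and 13645 ± 6611. Each neighbour in this order differed by less than the larger of the SDs of the pair. Much of this SD was spread that these genes share, so it does not measure how the order held within a library. Among cone genes Opn1sw, the short-wavelength opsin, came first with 5518 ± 3514, then Gngt2 with 4676 ± 2304 and Pde6h, the cone inhibitory PDE6 subunit, with 4103 ± 2503, which again differed by less than the SD. The order depends on the length used: over the union of all exons the level of Sag was 5350 per kb and that of Pde6h 205 per kb. At the low end stood the channel subunits Cnga3 with 56.8 ± 48.9 and Cngb3 with 55.1 ± 32.8 per kb.

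Several members share their position with another gene on the opposite strand, and the sources used here do not say whether reads were assigned by strand. This concerns Opn1sw, Opn1mw, Gngt2, Pde6h, Pde6a and Rcvrn, whose partners had mean normalized counts of 4.78% (Rcvrn) to 806% (Pde6h) of the member's own, so that the values of these 6 members are uncertain. For Pde6a the partner is a pseudogene, at 7.04%. The partners of Gngt2 and Pde6h, Abi3 and Arhgdib, are known to be expressed in leukocytes. Gnb1 and Abca4 also overlap pseudogenes on the opposite strand, at 0.00956% or less of their own counts, and Cnga1, Rp1 and Cngb3 overlap pseudogenes on the same strand, at 1.63% or less.

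**Figure D2:**
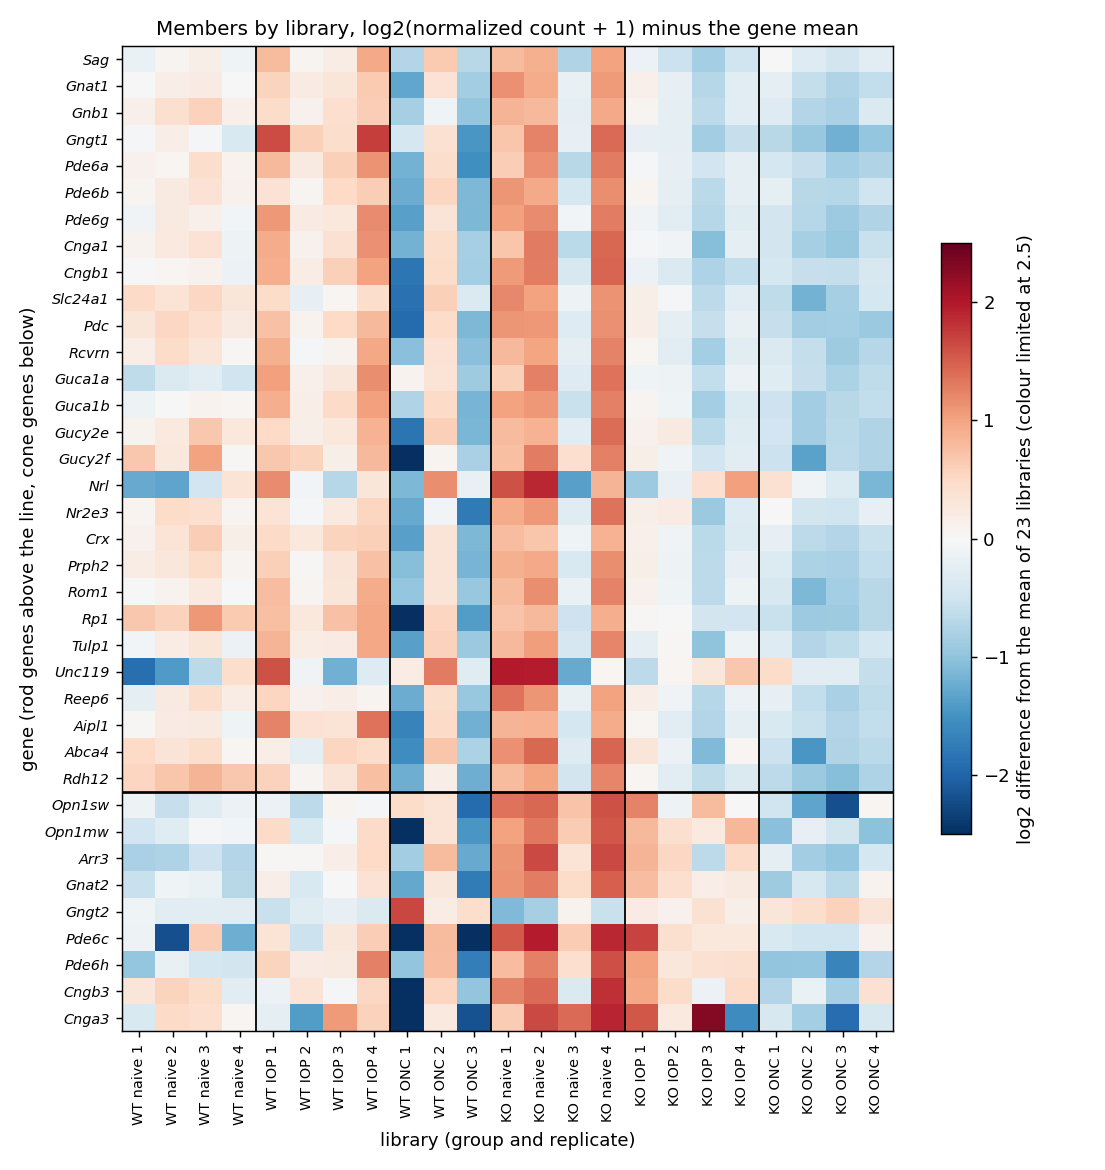
Each row is a member and each column a library (x axis, in 6 groups set apart by lines). Colour gives the log2(normalized count + 1) minus the mean of the gene over 23 libraries, limited at 2.5 either way. Most rod rows share 1 pattern, high in KO naive replicates 1, 2 and 4 and low in WT ONC replicates 1 and 3, whereas Nrl, Unc119 and Gngt2 differ from it.

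KO against WT in naive retinas asks what loss of Spp1 changes without IOP elevation or ONC. Of the 8 cone genes without Gngt2, 8 had a higher mean in KO, and 2 of the 9 cone genes passed the test (adjusted p under 0.05 over all 17102 genes and an absolute log2 fold change over 0.58), Arr3 and Gnat2, both upward. None of the 28 rod genes did, although 8 had an unadjusted p under 0.05 by limma. Over all genes tested, 0.0702% were called higher and 0.339% lower, and 2670 of the 17102 had an unadjusted p under 0.05 by limma. The median log2 fold change was 1.504 for the 8 cone genes without Gngt2 and 0.51 for the rod genes, against 0.03 for all genes.

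Arr3, the cone arrestin (chrX:100605497-100618493, + strand, GRCm38), was at 439, 447, 537 and 462 normalized counts in the 4 WT naive libraries and at 1652, 2422, 974 and 2420.5 in the 4 KO naive ones. The groups did not overlap, and the log2 fold change was 1.90 ± 0.37 (SE, limma adjusted p = 0.028). Gnat2, the alpha subunit of cone transducin (chr3:108092789-108101432, + strand), was at 1186, 1635, 1572 and 1088 in WT and 3838, 4279.9, 2426 and 4951 in KO. All KO libraries were again above all WT libraries, and the log2 fold change was 1.47 ± 0.32 (SE, limma adjusted p = 0.0467). Opn1sw stood at 5909, 4333, 5256 and 5808 in WT and 16444, 17539, 10589.8 and 19555 in KO naive libraries, without overlap, but the log2 fold change was 1.56 ± 0.46 (SE, limma adjusted p = 0.0956), which misses the threshold. The same holds for Pde6h, at 676, 1164, 975 and 965 and 2275, 3168, 1783 and 4075, for which the log2 fold change was 1.53 ± 0.38 (SE, limma adjusted p = 0.0662). Exact permutation tests of KO against WT (two-sided, 39 tests on 13 members, some of them named for a call in the same comparison) could not go below p = 0.0286, which became 0.111 after Benjamini-Hochberg adjustment, so none passed.

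For the rod genes the 4 KO libraries spread over a wide range. Gnat1 was at 98862, 110092, 112623 and 98293 in WT naive and 215888, 185181, 86246 and 205091 in KO naive libraries. Replicate 3 was below the WT libraries and the other 3 far above them, and the log2 fold change was 0.64 ± 0.31 (SE, limma adjusted p = 0.332). Gngt1, the gamma subunit of rod transducin (chr6:3993792-3997436, + strand), was at 7045, 8074, 6924 and 5552 and 11635, 17054, 6219 and 19268, with the same library lowest in KO. Without KO naive replicate 3, 17 members were called, all higher in KO, 11 of rods and 6 of cones. Calls over all genes in fits with libraries left out are not given here or below. Such counts therefore do not show a change particular to the members. When any 1 of the other 7 naive libraries was left out, 0 members were called, so the 2 calls rest on all of them. edgeR on recovered reads called 0 members, but it called only 4 of all 17102 genes higher and 9 lower. The pigment epithelium share given above was 0.0752 to 0.215% in the 3 KO libraries with high rod values and 0.00436% in replicate 3.

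**Figure D3:**
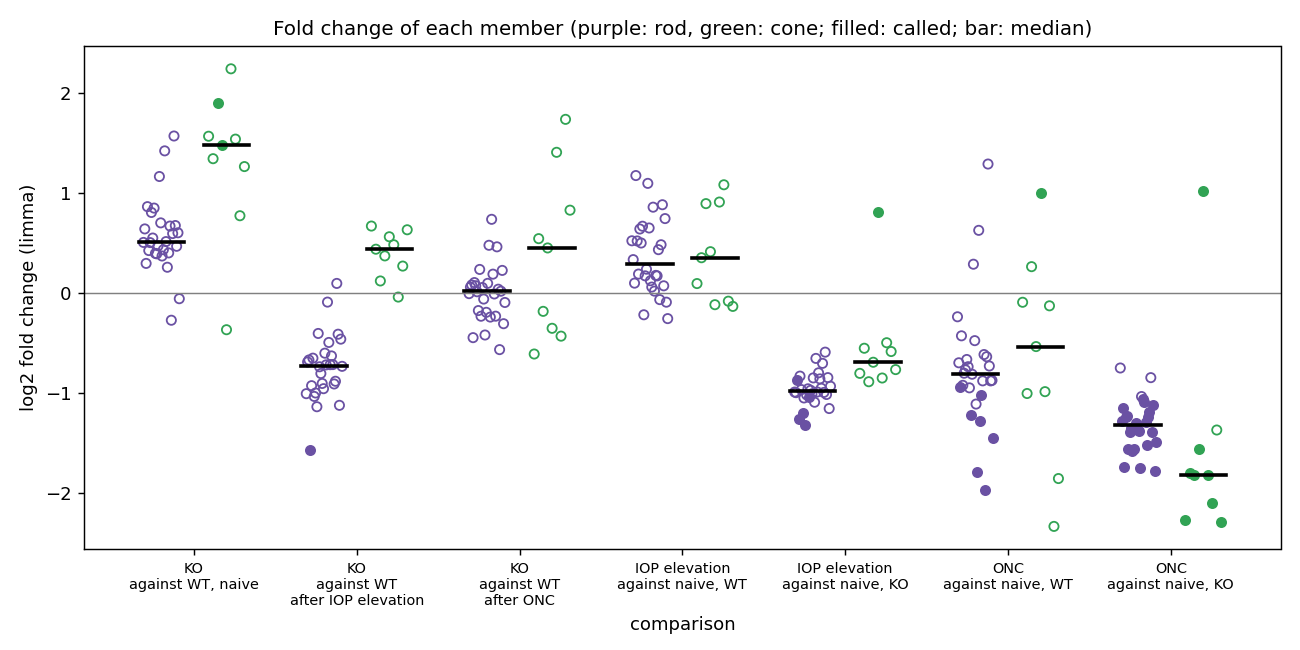
Log2 fold change from limma (y axis) of each member in 7 comparisons (x axis), rod genes in purple and cone genes in green. Filled points were called and the black bar is the median of the list. ONC against naive in KO has 33 called members of 37, IOP elevation against naive in WT has 0.

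IOP elevation against naive asks what ocular hypertension changes within a genotype. In WT, 0 of the 37 members were called by limma and 4 had an unadjusted p under 0.05, with 0.842% of all genes called higher and 0.719% lower. Of all 17102 genes, 2279 had an unadjusted p under 0.05 by limma. edgeR called 0 members (102 of all genes higher, 52 lower) and DESeq2 called 2 (310 of all genes higher, 270 lower). The median log2 fold change of the rod genes was 0.28, against -0.02 for all genes. Gngt1 gave the largest one, with 22226, 10867, 9747 and 23894 normalized counts in the 4 WT IOP libraries against the WT naive values above. All WT IOP libraries exceeded all WT naive ones, with a log2 fold change of 1.17 ± 0.36 (SE, limma adjusted p = 0.116). Guca1a, a calcium sensor that activates guanylate cyclase, went from 2935, 3559, 3794 and 3242 to 9339, 4986, 5589.9 and 10232, also without overlap, with a log2 fold change of 1.09 ± 0.31 (SE, limma adjusted p = 0.088). In both genes WT IOP replicates 1 and 4 were highest, the libraries with lens shares of 0.815 and 0.883% against 0.1701 and 0.115% in replicates 2 and 3.

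In KO, 5 of the 28 rod genes fell after IOP elevation and 1 of 9 cone genes, Gngt2, rose, while 2.81% of all genes were called lower and 5.06% higher. The 5 were Gnb1, Gngt1 and Pde6g of the transducin and PDE6 step, the channel subunit Cngb1, and Rcvrn, the calcium sensor recoverin. Of the 28 rod genes 28 had a lower mean and 25 an unadjusted p under 0.05, and their median log2 fold change was -0.98 against -0.12 for all genes. Of all 17102 genes, 4635 had an unadjusted p under 0.05 by limma in this comparison. Pde6g was at 42355, 47513, 19887 and 50701 in KO naive and 19734, 17106, 12693 and 17008 in KO IOP libraries. All naive libraries lay above all IOP libraries, replicate 3 by little, and the log2 fold change was -1.20 ± 0.32 (SE, limma adjusted p = 0.0305). Cngb1 was at 11323, 13104, 4115 and 14913 and 4929, 4218, 3190.0 and 3544, with naive replicate 3 inside the range of the IOP libraries, and the log2 fold change was -1.32 ± 0.37 (SE, limma adjusted p = 0.0344). Rod means of the KO naive group rest on 3 high libraries and 1 low one: 26 members were called without replicate 3, and 0 without any 1 of replicates 1, 2 or 4. Leaving out KO IOP replicate 2, 3 or 4 also left 0 calls, and leaving out replicate 1 left 3. edgeR on recovered reads, which had only 2 KO IOP libraries, called 0 members, and only 10 of all genes higher and 7 lower.

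After IOP elevation, KO and WT differed in 1 member, Gngt1, which was lower in KO. Over all genes 1.64% were called lower and 0.468% higher. Gngt1 was at 6269, 6161, 3924 and 4815 in KO IOP libraries, all below the WT IOP values of 22226, 10867, 9747 and 23894, and the log2 fold change was -1.57 ± 0.36 (SE, limma adjusted p = 0.0244). The call was lost without WT IOP replicate 1, WT IOP replicate 4, KO IOP replicate 3 or KO IOP replicate 4, and by edgeR. In this comparison edgeR called only 1 of all genes higher and 19 lower. Gnat1, at 143453, 112812, 121399 and 153876 in WT IOP and 107168, 85167, 59575 and 81982 in KO IOP libraries, did not overlap between the groups either, with a log2 fold change of -0.69 ± 0.31 (SE, limma adjusted p = 0.213). Sag was at 76034, 45996, 50045 and 84456 and 39673, 30203, 24258 and 31169.9, likewise without overlap, with a log2 fold change of -1.01 ± 0.34 (SE, limma adjusted p = 0.109). The median log2 fold change was -0.73 for the rod genes, 0.40 for the 8 cone genes without Gngt2 and -0.03 for all genes.

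**Figure D4:**
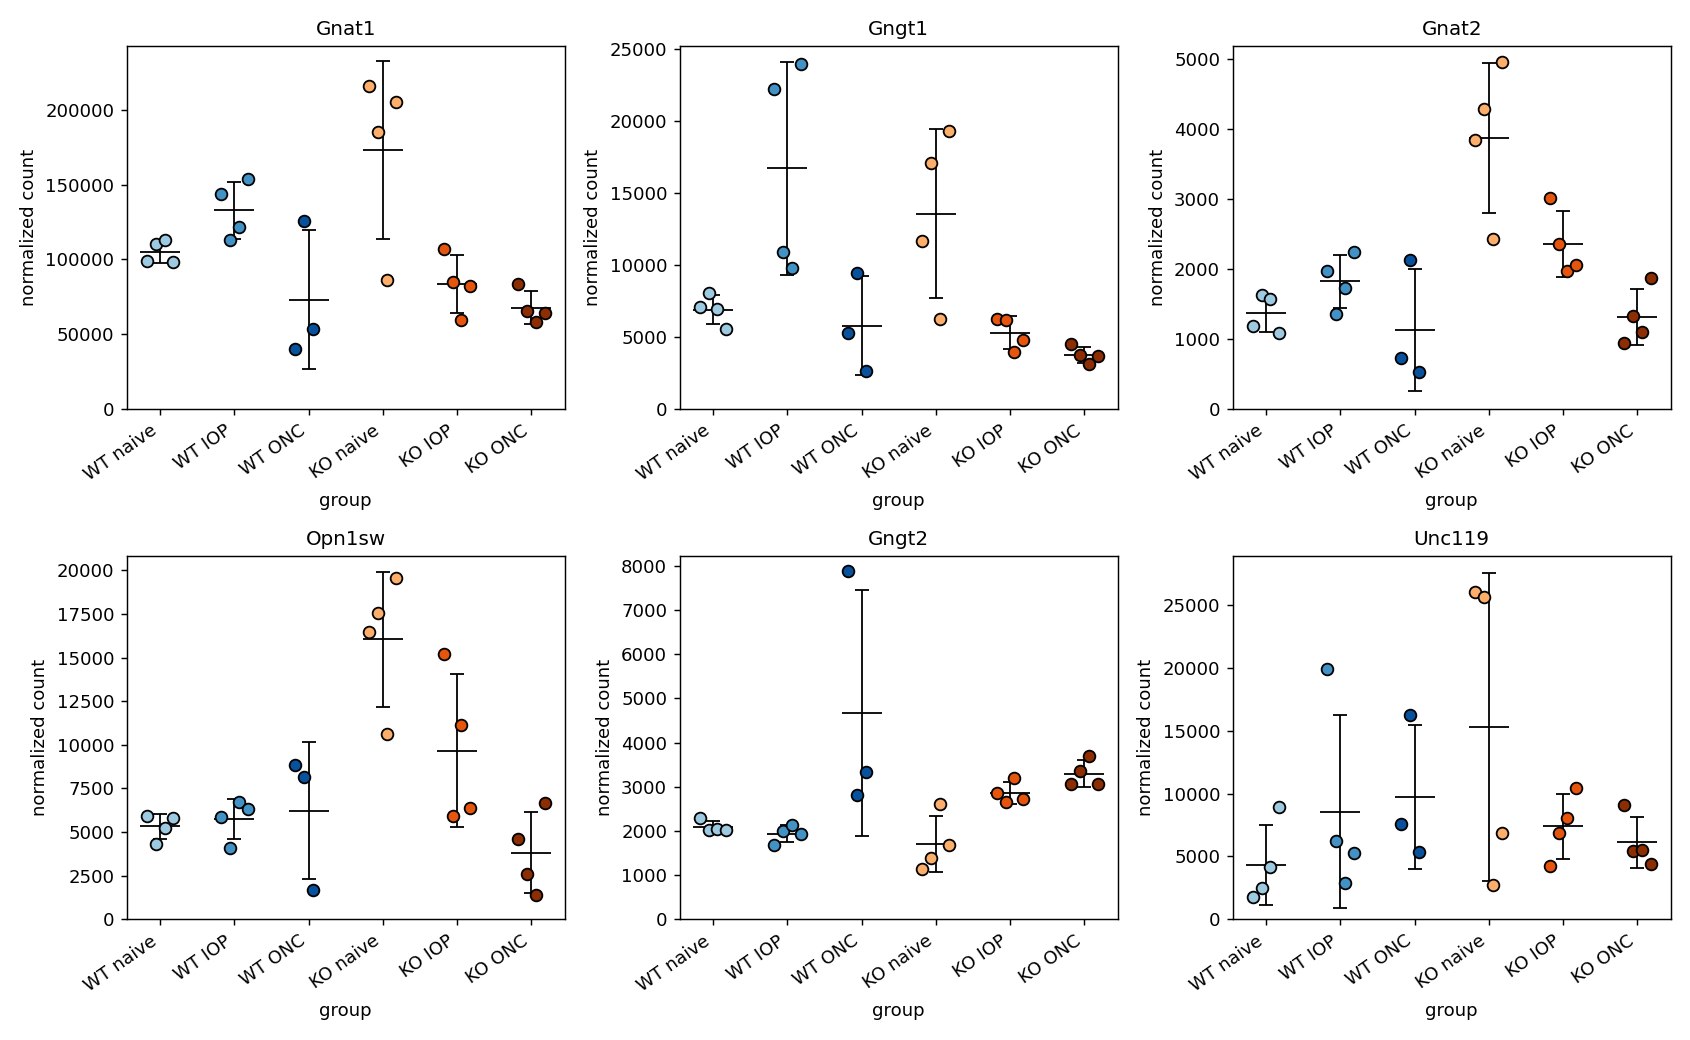
Normalized counts (y axis) of 6 members by group (x axis). Points are libraries in replicate order and bars the mean with 1 SD. Gngt1 in WT IOP replicates 1 and 4 exceeds every other library, Gngt2 is highest in WT ONC replicate 1, and Unc119 in KO naive replicates 1 and 2.

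The change after IOP elevation was also compared between genotypes, as the log2 change in KO minus that in WT. Of the members 7 were called, all lower in KO, when 3.9% of all genes were called lower and 4.85% higher. They were Gngt1, Pde6g and Cngb1 of the cascade, the calcium sensors Guca1a and Guca1b, Rom1 of the disc rim, and the cone arrestin Arr3. Guca1a, for example, was at 6907, 10879, 3655 and 11727 in KO naive and 4239.6, 4187, 2971 and 4104 in KO IOP libraries, beside the WT values above. Its difference of changes was -2.07 ± 0.44 on the log2 scale (SE, limma adjusted p = 0.0101), and that of Gngt1 was -2.43 ± 0.51 (SE, limma adjusted p = 0.00941). For Arr3, at 784, 786, 866 and 1083 in WT IOP and 1385, 1107, 487 and 1076 in KO IOP libraries, it was -1.78 ± 0.52 (SE, limma adjusted p = 0.0381). The median over the 37 members was -1.15, against -0.08 for all genes. Without WT IOP replicates 1 and 4 together, 0 members were called, and without KO naive replicate 3, 25 were. Each naive library enters this difference and that for ONC, so the 2 are not independent.

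ONC against naive asks what axonal injury of ganglion cells changes. In KO, 32 of the 37 members fell and 1, Gngt2, rose, while 11% of all genes were called lower and 12.7% higher. The 25 rod genes that fell comprised 10 of 11 cascade genes, 5 of 5 genes of calcium feedback, 2 of 3 transcription factors, 6 of 7 genes of the outer segment and transport, and 2 of 2 of retinoid handling. Those not called were Sag, Nrl and Unc119, and among cone genes Cngb3. The median log2 fold change was -1.32 for the rod genes and -1.82 for the 8 cone genes without Gngt2, against -0.12 for all genes.

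Gnat1 was at 83449.5, 65225, 58163 and 64215 in the 4 KO ONC libraries. This was below all KO naive libraries, replicate 3 included, and the log2 fold change was -1.28 ± 0.31 (SE, limma adjusted p = 0.00507). Rom1 was at 32149.5, 41456, 16520.2 and 44058 in KO naive and 14177, 8558, 10397 and 11487 in KO ONC libraries, again without overlap, and the log2 fold change was -1.52 ± 0.30 (SE, limma adjusted p = 0.000986). Pde6h, with the lowest adjusted p of the members, fell to 672, 684, 425 and 796, and the log2 fold change was -2.10 ± 0.38 (SE, limma adjusted p = 0.000538). Opn1sw fell to 4589, 2585, 1399 and 6659.8, and the log2 fold change was -2.27 ± 0.46 (SE, limma adjusted p = 0.00119). By contrast Sag was at 43471, 34950.1, 31680.5 and 36646 in KO ONC libraries, all above KO naive replicate 3, and its log2 fold change was -0.75 ± 0.34 (SE, limma adjusted p = 0.107). Between 25 and 35 members were called when 1 library was left out, and 32 by edgeR and 34 by DESeq2. Over all genes edgeR called 1815 higher and 1784 lower, and DESeq2 called 2141 and 2409.

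In WT, 7 rod genes fell after ONC and Gngt2 rose, where 10.5% of all genes were called lower and 7.55% higher. The 7 were Gnb1, Pdc (phosducin, which binds transducin beta-gamma), Gucy2f (a guanylate cyclase), Nr2e3, Crx, Rp1 (an axoneme protein) and Rdh12 (a retinol dehydrogenase). Crx was at 6763, 7955, 9609 and 6999 in WT naive and 2455, 7837 and 2880.0 in WT ONC libraries, of which replicate 2 lay within the naive range, and the log2 fold change was -1.02 ± 0.30 (SE, limma adjusted p = 0.0214). Rdh12 was at 5141, 5713, 6387 and 5634 and 1518, 3980.4 and 1511, all ONC libraries below all naive ones, and the log2 fold change was -1.45 ± 0.33 (SE, limma adjusted p = 0.00404). Gnat1, at 39877, 125967 and 53569 in WT ONC libraries, had a log2 fold change of -0.70 ± 0.34 (SE, limma adjusted p = 0.151); replicate 2 exceeded all WT naive libraries. Without WT ONC replicate 2, 29 members were called, 28 lower and 1 higher, whereas 1 was called without replicate 1, 4 without replicate 3 and 5 without WT naive replicate 3. edgeR on recovered reads called 3 members, and 1244 of all genes higher and 1171 lower.

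No member was called between KO and WT after ONC (0 calls by limma, edgeR and DESeq2, and 0 members with an unadjusted p under 0.05), with 0.076% of all genes called higher and 0.0117% lower. Of all 17102 genes, 1601 had such a p by limma, edgeR called 1 higher and 1 lower, and DESeq2 called 68 and 17. Without WT ONC replicate 2, Rp1, Opn1mw, Gnat2, Pde6c and Cngb3 were called, all higher in KO. In Gnat1 the log2 fold change of KO against WT was 0.06 ± 0.34 (SE, limma adjusted p = 0.98). The difference of the ONC change between genotypes gave 0 calls by limma, with 7 members at an unadjusted p under 0.05, 0 by edgeR and 4 by DESeq2, where 0.0585% of all genes were called higher and 0.0117% lower. Of all 17102 genes, 2125 had such a p by limma, edgeR called 0, and DESeq2 called 123 higher and 75 lower. The same difference gave 3 calls, Guca1a, Arr3 and Pde6h, without KO naive replicate 3, and 2 without WT ONC replicate 3.

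The ratio of rod-list to cone-list transcripts did not overlap between WT and KO in naive and IOP libraries. Any gene of the rod list that cones also use adds cone RNA to the rod sum. The sum of the rod genes without Gnb1 and Unc119, divided by that of the cone genes without Gngt2, was 34.9, 41.7, 37.9 and 33.8 in WT naive and 40.8, 39.1, 32.0 and 37.4 in WT IOP libraries. It was 23.04, 20.1, 14.03 and 19.5 in KO naive and 13.03, 20.8, 11.3 and 18.7 in KO IOP libraries, all below the WT libraries of both treatments. KO naive replicate 3, whose rod share was low, had the lowest ratio of its group and was also below WT. After ONC the ratio was 14.1, 26.9 and 47.2 in WT and 34.1, 30.6, 40.7 and 19.9 in KO, and the groups overlapped. In WT ONC replicate 1 Opn1sw had 8826 counts and every other gene of the cone sum at most 725. The mean log2 level of the rod genes minus that of the cone genes weighs genes equally. It was 3.93 in this library, the highest of all 23 libraries. In the other WT ONC libraries it was 3.06 and 3.86, and in KO ONC libraries 2.73 to 3.50. These ratios and differences are a description without a test.

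Opn1sw and Opn1mw, the short- and middle-wavelength opsins of mouse cones, kept a ratio of normalized counts of 2.06 to 5.38 in naive and IOP libraries. After ONC it ran from 1.10 to 7.74 in KO and was 29.8, 3.69 and 2.66 in WT replicates 1 to 3. WT ONC replicate 1 held 8826 counts of Opn1sw and 297 of Opn1mw, and it also had only 2.68 of Cngb3 and 8.05 of Cnga3, the cone channel subunits, the former at or below the level of 3 reads.

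Single rod genes were then set against the mean log2 level of the other rod genes over the 23 libraries, which share groups and library composition, so that correlations are descriptions. Pearson's r was at least 0.807 for 26 of the 28 rod genes, and highest for Gnat1 (0.984) and Prph2 (0.984). Unc119, which carries lipid-modified transducin to the outer segment and is used in many cells, had r = 0.338, and Nrl, the transcription factor that sets rod fate, had r = 0.552. Those 2 went together, with r = 0.899 between them. Nrl was at 635, 611, 1093 and 1932 in WT naive and 4562, 5631, 597 and 2727 in KO naive libraries. Unc119 was at 1779, 2485, 4144 and 8917 and 26034, 25633, 2744 and 6862 in the same libraries. Both were high in KO naive replicates 1 and 2, and Unc119 was far lower in replicates 3 and 4, although replicate 4 had the highest rod share of all. Relative to Crx, Unc119 ranged from 0.263 to 3.08 over the 23 libraries and Nrl from 0.0768 to 0.619. Neither gene was called in any of the 9 comparisons.

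**Figure D5:**
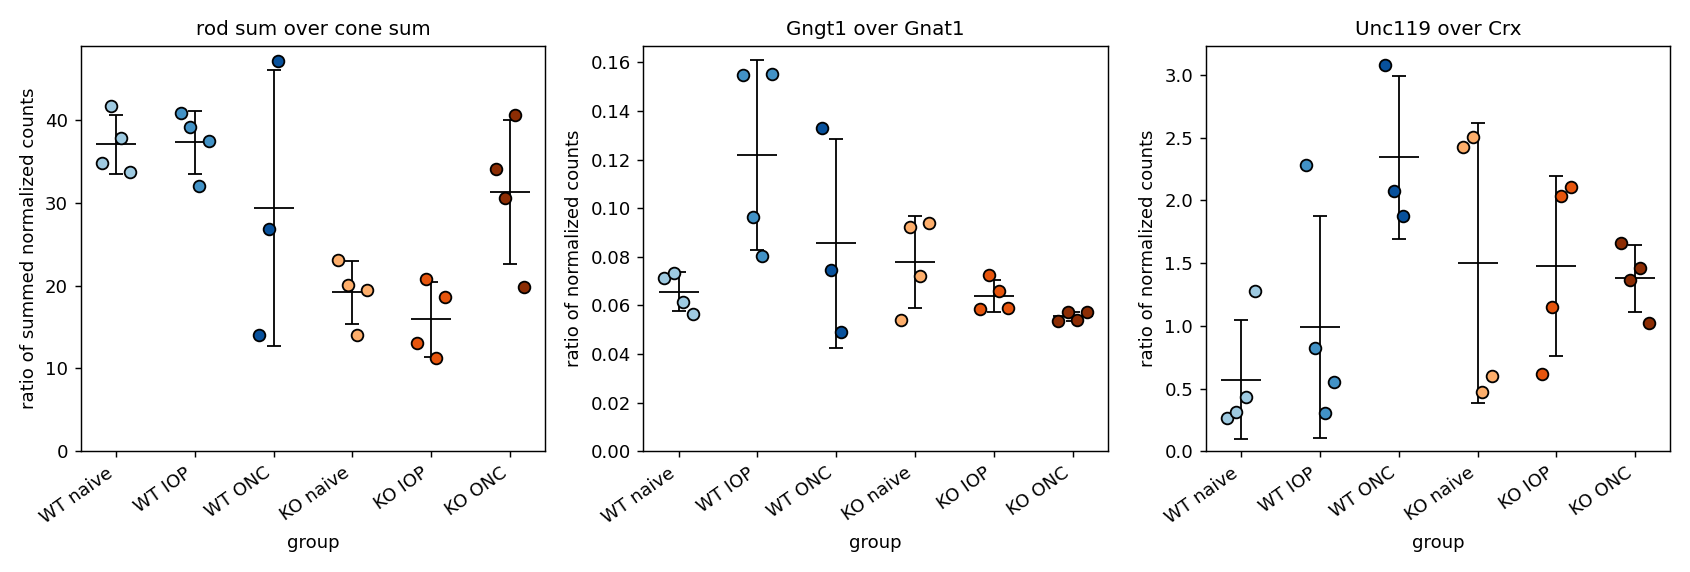
Ratios of normalized counts (y axis) by group (x axis): the rod sum over the cone sum (without Gnb1, Unc119 and Gngt2), Gngt1 over Gnat1, and Unc119 over Crx. Points are libraries, bars the mean with 1 SD. The first ratio lies between 11.3 and 23.04 in KO naive and KO IOP libraries and between 32.0 and 41.7 in WT naive and WT IOP libraries.

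Some genes of the rod list moved against each other within libraries, and whether rods alone gave their transcripts was not tested. Gngt1 relative to Gnat1 was 0.0713, 0.0733, 0.0615 and 0.0565 in WT naive, 0.155, 0.0963, 0.0803 and 0.155 in WT IOP and 0.0585, 0.0723, 0.0659 and 0.0587 in KO IOP libraries. All WT IOP values exceeded all values of both other groups. The ratio was 0.0539 to 0.0939 in KO naive, 0.0489 to 0.133 in WT ONC and 0.0538 to 0.0572 in KO ONC libraries, and KO naive replicates 2 and 4 and WT ONC replicate 1 lay within the WT IOP range. Guca1a relative to Gnat1 was 0.0297 to 0.0337 in WT naive and 0.0442 to 0.0665 in WT IOP libraries, and it was 0.03199, 0.0587, 0.0424 and 0.0572 in KO naive, 0.0396 to 0.0501 in KO IOP, 0.0461 to 0.121 in WT ONC and 0.0446 to 0.04696 in KO ONC libraries. Every library outside the WT naive group, apart from KO naive replicate 1, was thus above the WT naive range. Sag relative to Gnat1 was 0.393 to 0.431 in WT naive and 0.303 to 0.437 in KO naive libraries, and 0.507 to 0.662 and 0.521 to 0.571 in WT and KO ONC libraries. All ONC libraries thus stood above all naive libraries in this ratio. After IOP elevation it was 0.530, 0.408, 0.412 and 0.549 in WT, with replicates 1 and 4 inside the ONC range, and 0.355 to 0.407 in KO.

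Gngt2, the gamma subunit of cone transducin, ran opposite to the other members, with r = -0.889 to the mean of the rod genes. It was at 2288, 2029, 2054 and 2030.1 in WT naive and 7882, 2824 and 3330.4 in WT ONC libraries. All ONC libraries were higher, and the log2 fold change was 1.00 ± 0.26 (SE, limma adjusted p = 0.0117). In KO it was at 1147, 1387, 2614 and 1675 in naive, 2849, 2649, 3209 and 2720.2 in IOP and 3062, 3350.1, 3705 and 3069 in ONC libraries. All IOP and ONC libraries exceeded all naive ones, and the log2 fold change was 0.81 ± 0.24 (SE, limma adjusted p = 0.0455) for IOP elevation and 1.02 ± 0.24 (SE, limma adjusted p = 0.00445) for ONC. Gngt2 and the summed share of the microglia list were both lowest in KO naive replicates 1, 2 and 4, followed by WT IOP replicate 1.

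Further photoreceptor genes, a list of 35 that are not members, moved in the same comparisons. After ONC 27 were called lower in KO and 9 in WT, and 0 higher, where 11% and 10.5% of all genes were called lower. They include the visual cycle protein Rbp3 with log2 fold changes of -1.62 ± 0.27 in KO and -0.94 ± 0.29 in WT. After IOP elevation 7 were called lower in KO (2.81% of all genes) and 2 higher in WT (0.842%). The 2 were the transcription factor Neurod1 (1.24 ± 0.30) and the cone transducin beta subunit Gnb3 (1.44 ± 0.35). Of the 10 bipolar markers, 9 also had higher means in WT IOP than in WT naive libraries, and 0 were called. Which cells gave the Neurod1 and Gnb3 transcripts was not tested. In KO IOP against WT IOP libraries 5 of the 35 genes were called lower (1.64% of all genes), Impg2, Neurod1, Otx2, Rd3 and Nxnl2. In naive retinas 0 of the 35 were called by limma, with 4 at an unadjusted p under 0.05. Of all 17102 genes, 2670 had such a p in naive retinas. The 5 genes outside the members whose log2 levels were most like the mean of the rod genes over 23 libraries were Agpat3 (r = 0.977), Dmd (0.975), Rtbdn (0.975), Grk1 (0.973) and Prom1 (0.972).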

How the data were processed

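The 37 members and the lists of other cells were chosen with earlier results of these data known. Per the labels and the methods of the study, retinas were digested with papain, live GFP+ single cells were sorted, and paired reads of 150 bases were quantified with salmon against GRCm38. The submitters' processing notes also name STAR and DESeq2, with no version. The deposited file gives normalized counts per gene, a signal value: the authors divided read counts by a size factor per library. Values were whole multiples of a step in all 23 libraries (100% within 0.001 read). For KO IOP replicates 2 and 4, whose size factors lay close to 1, the recovered reads did not pass the check used here, so these libraries entered no count model. Of 35825 gene IDs, 35436 matched GENCODE M21 without version and 389 did not.

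log2(normalized count + 1) of 17102 genes was fitted over the 6 groups with limma 3.58.1 in R 4.3.3 (intensity trend, Benjamini-Hochberg adjustment over all 17102). Calls needed an adjusted p under 0.05 together with a log2 fold change beyond 0.58 in either direction. Fold changes are on the log2(value + 1) scale, which understates those of low genes. The 9 comparisons share groups. The procedure was tested on simulated data. Single members were compared with exact permutation tests, two-sided. Alternatives were a pseudocount of 5, no filter, upper-quartile and quantile scaling, a replicate block, edgeR 4.0.16 and DESeq2 1.42.0 on recovered reads, each library left out, and 2 sets of libraries left out together, which were chosen after seeing the data. A count test was not the main test because the values are normalized.

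Named members were the 5 rod and 3 cone genes with the highest level per kb, Gnb1, Unc119 and Gngt2 for their known use outside photoreceptors, and up to 3 members with the largest fold change called in each comparison of KO with WT. The other members given library by library (Guca1a, Cngb1, Crx, Rdh12 and Nrl) were named after their values were seen. Same-numbered libraries did not deviate together (r from -0.253 to 0.230, above 0.1 in 10 of 55 pairs).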

Additional observations from a re-analysis of the deposited data

Results flagged for a closer look

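Values of the 13 named members and the rod and cone shares were checked in the 5 groups of 4 libraries for 1 value far from the other 3 (75 checks, of which chance alone gives about 1 in 20), and 3 stood apart. Gngt2 was at 2288 normalized counts in WT naive replicate 1, above the 2029 to 2054 of the other 3 libraries. Gnb1 was at 22654 in KO naive replicate 3, the library with the low rod share. Pde6h was at 2661 in KO IOP replicate 1.

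The change after IOP elevation differed between genotypes, by the interaction in limma, for 4 named members. The difference, KO minus WT on the log2 scale, was -1.84 for Pde6g, -1.38 for Rom1, -1.78 for Arr3 and -2.43 for Gngt1. In WT all 4 had higher means after IOP elevation and in KO all 4 had lower ones. Lens shares were 0.115 to 0.883% in WT IOP libraries and pigment epithelium shares 0.00436 to 0.215% in KO naive libraries, and their part in these differences was not tested.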

How the results depend on the processing

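The number of members called in naive KO against WT (2) was 1 without a filter, 1 with upper-quartile scaling, 7 with quantile scaling, 6 by DESeq2, 0 by edgeR and 28 without the 4 libraries that stand apart (WT IOP replicates 1 and 4, KO naive replicate 3 and WT ONC replicate 2), and 0 to 17 with 1 library left out. After IOP elevation (1) it was 0 by edgeR, 0 without WT IOP replicates 1 and 4, 0 without the 4 libraries and 0 to 1 with 1 left out. After ONC (0) it was 12 without the 4 libraries and 0 to 5 with 1 left out. For IOP elevation against naive it was 2 by DESeq2 in WT (0), and in KO (6) 1 without a filter, 21 with quantile scaling (20 lower, 1 higher), 3 by DESeq2, 0 by edgeR, 30 without the 4 libraries and 0 to 26 with 1 left out. For ONC against naive in WT (8) it was 3 by edgeR, 32 without the 4 libraries and 1 to 29 with 1 left out, and in KO (33) it stayed between 25 and 36 throughout. The IOP interaction (7) gave 4 without a filter, 13 with quantile scaling, 12 by DESeq2, 2 by edgeR, 0 without WT IOP replicates 1 and 4, 26 without the 4 libraries and 2 to 25 with 1 left out. The ONC interaction (0) gave 4 by DESeq2, 3 without the 4 libraries and 0 to 3 with 1 left out. The causes were not tested, except that count models and reduced sets hold fewer libraries.

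With the replicate block, 12 members were called for IOP elevation against naive in KO, 1 in WT, 10 in the IOP interaction, 3 in naive KO against WT and 32 for ONC against naive in KO. The libraries share only a number, and the block changed no call count by over 1.5 times elsewhere. Calls over all genes with the block are not given, so these counts do not show a change particular to the members.

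Without Gngt2 the cone share averaged 0.0410% in WT naive (0.0493% with it) and 0.0273% in KO ONC (0.0384%). Without the 10 most abundant genes of each library it averaged 0.0543% in WT naive. The other rod and cone shares moved by less than 1 SD. Of 624 values for named members between KO and WT, 529 kept their direction and their side of the threshold, 25 lost it, 24 gained it, and 46 changed sign. The median log2 change of all genes moved from -0.10 to -0.21 for ONC in WT, and from -0.08 to -0.19 in the IOP interaction, with upper-quartile scaling. It moved from -0.12 to -0.01 for IOP elevation in KO, and from -0.12 to -0.02 for ONC in KO, with quantile scaling. Depth did not limit members, whose values lay above 3 reads apart from Cngb3 in WT ONC replicate 1.

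The sign changes belong to 12 fold changes of KO against WT, none called in the main test or where the sign changed. After ONC, Gnat1 (0.06) was -0.11 by edgeR and -0.11 by DESeq2, and Pde6g (0.011) was -0.18 by both and -0.043 with the replicate block. Sag (-0.0080) was 0.052 with upper-quartile and 0.19 with quantile scaling, and Prph2 (-0.011) was 0.048 and 0.095. Without the 4 libraries, Sag was 0.44, Prph2 0.47, Rom1 0.19, Pde6h 0.28 and Arr3 0.43. After IOP elevation, Pde6h (-0.042) was 0.090 by edgeR, 0.10 by DESeq2 and 0.30 without WT IOP replicates 1 and 4 or the 4 libraries, and Unc119 (0.094) was -0.11 with quantile scaling, -0.48 by edgeR and -0.48 by DESeq2. With 1 library left out, the values after ONC ran from -0.29 to 0.54 for Gnat1, -0.24 to 0.44 for Sag, -0.30 to 0.53 for Pde6g, -0.27 to 0.47 for Prph2, -0.45 to 0.19 for Rom1, -0.64 to 0.10 for Gngt2, -0.97 to 0.28 for Pde6h, -0.087 to 0.34 for Gnb1 and -0.59 to 0.43 for Arr3. After IOP elevation they ran from -0.20 to 0.19 for Pde6h, -0.30 to 0.63 for Unc119 and -0.064 to 0.44 for Arr3. Leaving out WT ONC replicate 2 gave the highest of these values after ONC, except for Gngt2.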
